A study of Mus musculus with 34 samples.

Results

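The transcriptomes of *Ythdf2* CKO and *Ythdf2* CTL hematopoietic stem cells (HSCs) from young mice were compared. The members of the comparison were taken by their labels alone and comprise 16 of the 34 libraries in the series, namely 8 of *Ythdf2* CKO and 8 of *Ythdf2* CTL HSCs. They come from 8 of the 17 mice sequenced, 4 of each genotype, because every young mouse gave 2 libraries, A and B, each made from 100 sorted HSCs. The 2 libraries of a mouse were summed, and the mouse was the replicate. The strain background was C57BL/6 throughout, and young mice were 8 to 12 wk old. The other 9 mice, 5 CKO and 4 CTL, were 1 yr old and enter only where ages are compared. *Ythdf2* CKO mice carried homozygous floxed *Ythdf2* alleles and *Vav-iCre*, a Cre that is active in blood cells of every lineage. *Ythdf2* CTL mice carried the same floxed alleles without Cre. In both genotypes the floxed allele has exon 2 between loxP sites and a GFP sequence after the start codon, so the controls were not unmodified animals. HSCs were sorted from bone marrow as Lin-, c-Kit+, Sca-1+ (LSK), CD48-, CD150+ cells, and polyadenylated RNA was sequenced by SMART-Seq2.

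YTHDF2 is a cytoplasmic reader of N6-methyladenosine (m6A), a methyl mark on adenosines of mRNA. It binds marked transcripts and recruits the CCR4-NOT deadenylase, so that the transcripts are degraded sooner. HSCs sit at the top of the blood hierarchy, are mostly quiescent, respond to interferons and other inflammatory cytokines, and include cells that are primed towards the megakaryocyte and platelet lineage.

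Library totals ranged from 2083074 to 4133477 counts in CTL and from 1859784 to 3938152 in CKO, which puts the level that 3 counts allow in a library at 0.726 to 1.61 on the scale of CPM, here from the unscaled totals. All other CPM values are relative to the normalized library size. This limit and the intervals below cover counting error only. The 2 libraries of a mouse correlated at a median r of 0.894 across genes, and libraries of different mice of the same genotype at 0.893. Genes are not independent replicates, so these coefficients are descriptions. CKO mouse 3 stood apart from the other 7 mice at 54.3 on the first principal component, against −21.3 to 7.76. Its library B lay farther out than its library A (69.7 and 15.8 on the first component of the libraries), so counts or medians of lists that moved by over 1.5 times, or changed direction, without this mouse are given both ways. Sex was unbalanced between the genotypes. Y-linked genes gave 1463 to 2276 counts in CTL 1, 2 and 3 and in CKO 1, and 0 in CTL 4 and in CKO 2, 3 and 4. Among mice with Y-linked counts there was thus 1 CKO mouse, and among mice without them 1 CTL mouse. In a fit with the Y-linked level as a covariate, 6 of the 18 called genes named below still passed the threshold and 12 did not, all with the same direction.

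**Figure D1:**
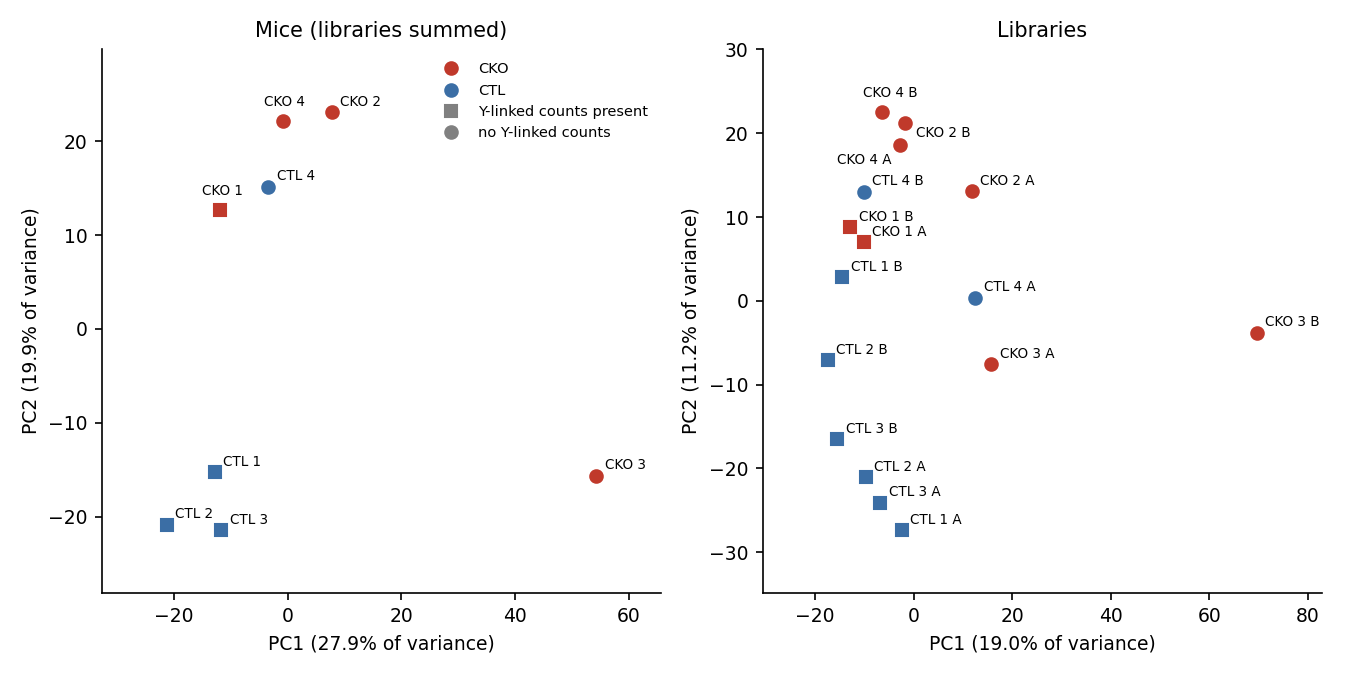
First and second principal components of log2 CPM for mice (left) and libraries (right), with the percent of variance on the axes, CKO in red, CTL in blue, and squares where Y-linked counts were present. CKO 3 lies at 54.3 on the first component and the other 7 mice between −21.3 and 7.76, while CKO 1, 2 and 4 and CTL 4 lie above 0 on the second component.

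The transcript of the deleted gene was measured first. *Ythdf2* (chr4:132184916-132212256) stood at 114, 120.0, 89.8 and 92.6 CPM in CTL mice 1 to 4 and at 53.5, 55.2, 58.4 and 48.9 CPM in CKO mice 1 to 4. All 4 CKO mice, and all 8 CKO libraries, lay below every CTL mouse and library. The mean fell 1.93-fold, from 104 ± 15.1 to 54.0 ± 3.98 CPM (SD, n = 4 mice each), with a log2 fold change of −0.95 (SE 0.17, edgeR adjusted p = 0.0406; exact permutation test over mice, two-sided p = 0.0286, the smallest that 4 against 4 can give). The counts are for the whole gene and do not separate exon 2, so they cannot show how completely that exon was removed. The homologs *Ythdf1* and *Ythdf3*, which read the same mark, were not called. *Ythdf1* was at 68.6 ± 10.4 CPM in CTL and 84.3 ± 25.5 in CKO HSCs (edgeR adjusted p = 0.888), and *Ythdf3* at 67.7 ± 7.32 and 74.4 ± 22.3 (adjusted p = 0.956). Among 7 m6A readers tested, *Ythdf2* was the one called, and none of 10 m6A writers and erasers passed even an unadjusted p of 0.05 in edgeR's test, as against 1 of 23 CCR4-NOT and decapping genes. Without CKO 3, 1 reader was higher and 2 were lower at that p, and the writers and erasers were unchanged at 0.

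Loss of *Ythdf2* was accompanied by few changes in steady-state RNA at a strict threshold. Of 11526 genes tested, 15 (0.130%) were higher and 5 (0.0434%) lower in CKO HSCs at an adjusted p below 0.05 in the quasi-likelihood test of edgeR, with adjustment after Benjamini and Hochberg. An unadjusted p below 0.05 was reached by 491 genes (4.26%) that were higher and 323 (2.80%) that were lower, and these shares are the background for the gene groups below. Every CKO mouse lay above every CTL mouse in 315 genes (2.73%) and below in 242 (2.10%). The median log2 fold change over all genes was −0.00093, with 49.9% of genes above 0. The scaling centers the fold changes, so these values are the reference for the lists below and cannot show a change common to all genes. In each of the 20 called genes the CKO and CTL mice did not overlap, and in 8 of them the 8 CKO and 8 CTL libraries did not overlap either. Over all genes tested, the 8 CKO libraries lay above the 8 CTL libraries in 17 and below in 14. The calls were made from these same counts, so this separation is no separate support for a called gene. In a bulk sample, a higher level per cell and a larger number of cells that make the transcript cannot be told apart. The calls were sensitive to single mice. Without CTL 1 and without CTL 2, 0 genes passed (edgeR, 422 higher and 254 lower with p below 0.05 before adjustment without CTL 1, 434 and 239 without CTL 2). There were 4 higher and 2 lower without CTL 3, 7 and 2 without CTL 4, 5 and 1 without CKO 1, 6 and 2 without CKO 2, 14 and 4 without CKO 3, and 10 and 2 without CKO 4. With the Y-linked level as a covariate, 8 genes were higher and 1 lower.

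**Figure D2:**
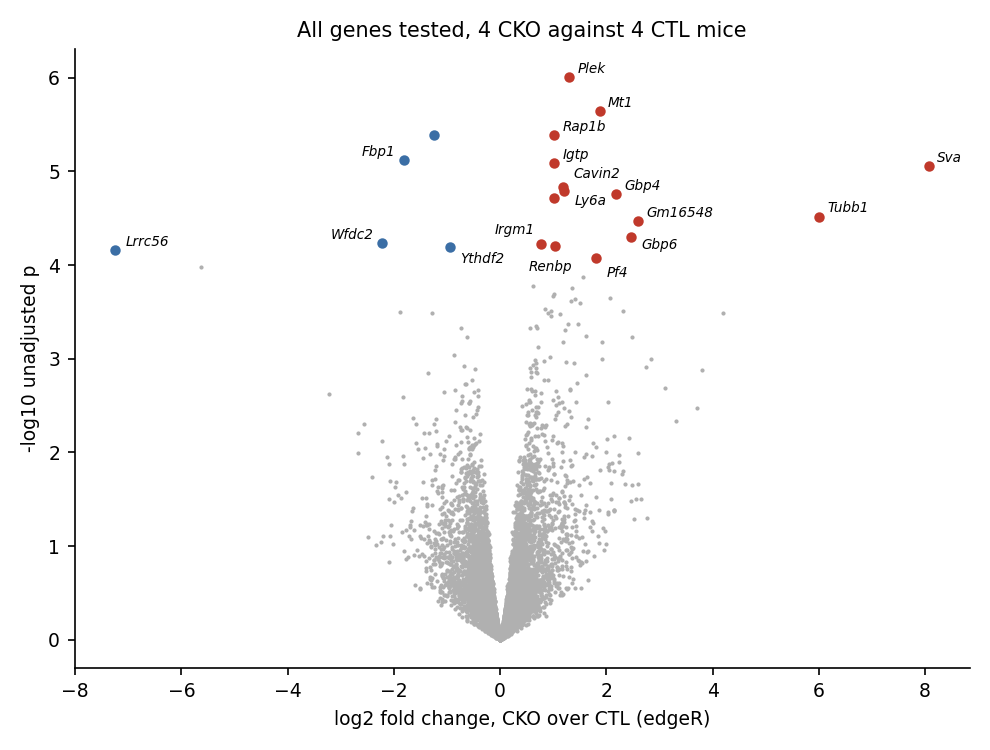
Volcano plot of the log2 fold change of CKO over CTL HSCs (x axis) against −log10 of the unadjusted edgeR p-value (y axis) for the 11526 genes tested, with called genes in color. The 15 genes called higher and the 5 called lower lie among 491 and 323 genes at an unadjusted p below 0.05.

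**Figure D3:**
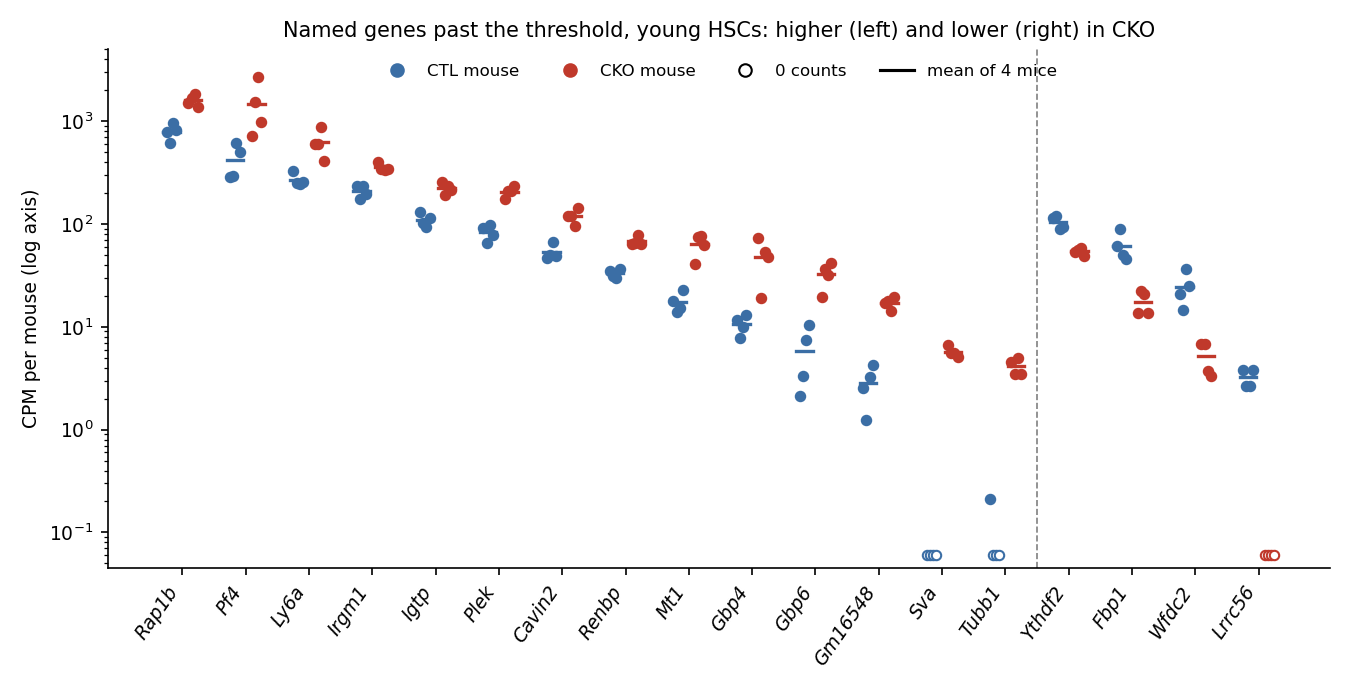
CPM on a log axis in each of the 4 CTL and 4 CKO mice, for 18 called genes, one point per mouse (CTL blue, CKO red) with bars at the mean and open circles for 0 counts. The genotypes do not overlap in any gene, and all 4 CTL mice have 0 counts of *Sva*, as all 4 CKO mice have of *Lrrc56*.

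Genes of platelets and megakaryocytes gave 5 of the 20 called genes, the most of any single list. Called interferon-inducible genes (*Igtp*, *Irgm1*, *Gbp4*, *Gbp6* and *Ly6a*) are split over several lists, so this order depends on how the lists were drawn. *Plek* (chr11:16971206-17008718), which encodes pleckstrin, a substrate of protein kinase C in activated platelets, stood at 92.4, 65.8, 98.5 and 78.0 CPM in CTL 1 to 4 and at 173, 207, 210.2 and 233 CPM in CKO 1 to 4. The lowest CKO mouse exceeded the highest CTL mouse, and the libraries did not overlap (log2 fold change 1.30, SE 0.17, edgeR adjusted p = 0.0114). *Rap1b* (chr10:117814597-117845974) encodes the small GTPase that switches on platelet integrins. It was measured at 786, 608, 951 and 813 CPM in CTL and at 1508, 1667, 1829 and 1363 CPM in CKO mice 1 to 4, so that the mean was 2.02-fold higher in CKO HSCs (log2 fold change 1.01, SE 0.15, edgeR adjusted p = 0.0117). *Cavin2* (chr1:51289126-51302960), a component of caveolae that is abundant in platelets, was at 46.2, 49.8, 67.1 and 48.9 CPM in CTL and 119, 120.1, 95.3 and 145 CPM in CKO mice, again without overlap of the libraries (log2 fold change 1.18, SE 0.19, edgeR adjusted p = 0.0201).

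Called genes also included a pair expressed mainly in the megakaryocyte lineage. *Pf4* (chr5:90772435-90773383), a chemokine stored in platelet α-granules, stood at 286, 292, 614 and 501 CPM in CTL 1 to 4 and at 717, 1538, 2679 and 975 CPM in CKO 1 to 4. CKO 3 was the highest of the CKO mice, with 5448 CPM in its library B alone, and CKO 1 lay closest to the CTL range (log2 fold change 1.80, SE 0.34, edgeR adjusted p = 0.0488). *Tubb1* (chr2:174450595-174458380), the β-tubulin of platelet marginal bands, was near absent in controls, with 0.212, 0, 0 and 0 CPM in CTL mice and 4.57, 3.51, 5.00 and 3.50 CPM in CKO mice. This is 95 counts against 1, a ratio of 97.5 with an exact 95% interval of 17.1 to 3890 (edgeR adjusted p = 0.0292). Each of the 4 CKO mice carried the transcript, although its level stayed below 6 CPM in all of them.

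In the list of platelet and megakaryocyte genes as a whole, 31 of 39 genes tested had a log2 fold change above 0, with a median of 0.43, and 20 (51.3%, against 4.26% of all genes) were higher and 2 lower with p below 0.05 before adjustment. All 4 CKO mice lay above all CTL mice in 16 of the 39 and below in 1. The list was drawn with earlier results of these data known and holds 5 called genes, so these shares are descriptions. Without CKO 3, 19 were higher and 3 lower at that p. The summed level of the list was 7596 to 8194 CPM in CTL and 9892 to 12990 CPM in CKO mice. Members just short of the adjusted threshold included *Clu*, *Vwf*, *Itgb3* and *F2rl2*. *Clu*, which encodes clusterin, a secreted chaperone also found in platelets, was at 17.6, 10.7, 13.7 and 30.8 CPM in CTL and 62.0, 56.3, 58.4 and 38.4 CPM in CKO mice (log2 fold change 1.56, SE 0.31, edgeR adjusted p = 0.07). *Vwf*, encoding von Willebrand factor, was at 18.4, 14.1, 9.22 and 24.3 CPM in CTL and 34.4, 44.9, 53.9 and 42.7 CPM in CKO mice (log2 fold change 1.42, SE 0.30, edgeR adjusted p = 0.0949). For *Clu* and *Vwf* every CKO mouse was above every CTL mouse. *Itgb3*, the β subunit of the fibrinogen receptor, ranged from 24.5 to 40.5 CPM in CTL and from 51.6 to 131 CPM in CKO mice, and *F2rl2*, a thrombin receptor, from 20.9 to 49.4 and from 74.1 to 193, with CKO 3 the highest in both.

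Receptor genes of the platelet membrane had fold changes of either sign. *Itga2b* (CD41), the partner of *Itgb3*, was at 76.0, 69.2, 50.6 and 85.1 CPM in CTL and 101, 98.7, 51.2 and 127 CPM in CKO mice (log2 fold change 0.43, edgeR adjusted p = 0.804). *Gp1bb* had a log2 fold change of 0.72 (SE 0.29) and *Gp9* one of −0.45 (SE 0.20), although both encode subunits of the same von Willebrand factor receptor, and neither was called (adjusted p = 0.607 and 0.674). The transcription factor *Fli1* had a log2 fold change of 0.57 (SE 0.14) and an unadjusted p of 0.00125.

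Interferon-inducible GTPases were another group among the called genes. They comprise the p47 GTPases, which act on the vacuoles of intracellular pathogens, and the p65 guanylate-binding proteins (GBPs). *Igtp* (chr11:58199556-58207592, p47 family) stood at 129, 103, 93.9 and 115 CPM in CTL 1 to 4 and at 256, 189.6, 234 and 214 CPM in CKO 1 to 4. The libraries of the genotypes did not overlap, and the mean was 2.02-fold higher in CKO HSCs (log2 fold change 1.02, SE 0.16, edgeR adjusted p = 0.0145). *Irgm1* (chr11:48865245-48871420), a regulatory member of the same family, was at 232, 175, 233 and 195 CPM in CTL and 398, 345, 335 and 339 CPM in CKO mice, with CKO 1 the highest (log2 fold change 0.76, SE 0.14, edgeR adjusted p = 0.0406). The GBPs *Gbp4* and *Gbp6* were called as well. *Gbp4* (chr5:105115767-105139586) was measured at 11.7, 7.74, 9.92 and 12.95 CPM in CTL mice and at 73.1, 18.9, 53.2 and 47.5 CPM in CKO mice, a 4.56-fold difference of means in which CKO 2 was closest to the controls (log2 fold change 2.19, SE 0.36, edgeR adjusted p = 0.0201). *Gbp6* (chr5:105270702-105295871) was measured at 2.12, 3.34, 7.41 and 10.3 CPM in CTL and 19.6, 36.8, 31.9 and 41.4 CPM in CKO mice (log2 fold change 2.46, SE 0.44, edgeR adjusted p = 0.0406). The CTL mice varied several-fold in *Gbp6*, but the highest of them stayed below the lowest CKO mouse.

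All 8 p47 GTPases tested had a log2 fold change above 0 (median 0.89), 7 of them (87.5%) at an unadjusted p below 0.05, and all 9 GBPs likewise (median 1.01), 8 of them (88.9%) at that p. Without CKO 3 the number was 7 in each family. Both lists were drawn with earlier results of these data known and hold called genes, so these shares are descriptions too. *Irgm2* (log2 fold change 1.18, SE 0.28), *Iigp1* (1.00, SE 0.21), *Tgtp1* (0.94, SE 0.23) and *Tgtp2* (0.84, SE 0.18) did not pass the adjusted threshold, nor did *Gbp11* (4.20, SE 0.91) and *Gbp9* (1.62, SE 0.50). *Gbp11* was at 0.847, 0.176, 0 and 0.328 CPM in CTL and 1.71, 6.31, 7.60 and 8.90 CPM in CKO mice and thus low in both genotypes, with CKO 1 the lowest CKO mouse. *Gbp7* was at 92.6, 88.2, 83.3 and 86.2 CPM in CTL and 112, 118, 128 and 101 CPM in CKO mice (log2 fold change 0.39, edgeR adjusted p = 0.557). Members of each family lie in several clusters, on chromosome 11 for most p47 genes and on chromosomes 3 and 5 for the GBPs, and resemble each other in sequence. Reads can therefore be shared between them, and how the counting treated such reads is not given in the sources used here. The sum over a family is less exposed to this, and for the p47 list it was 939 to 1287 CPM in CTL and 1734 to 2291 CPM in CKO mice.

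Because these GTPases moved together, their promoters were searched for the letters of 2 interferon response elements. The gamma interferon activation site (GAS) was searched as TTCNNNGAA and the interferon-stimulated response element (ISRE) as GAAANNGAAA, on both strands, in the 250 bases before and 50 after each start site (RefSeq, GRCm38.p6). The GAS letters occur in 8.30% and the ISRE letters in 3.44% of 32851 mouse promoters of that length. Of the 6 p47 genes with a promoter entry, 4 held the GAS and 5 the ISRE letters, and of 4 GBPs with an entry 2 held the GAS and all 4 the ISRE letters. The called *Gbp4* and *Gbp6* had no entry. GBPs with an entry included *Gbp3* and *Gbp7*, which were not called (edgeR adjusted p = 0.704 and 0.557). Among the 383 genes with an entry that were higher at an unadjusted p below 0.05, 12.3% held GAS and 8.09% ISRE letters, against 6.11% and 4.20% of the 262 lower genes. The shares were 8.34% and 3.89% of all 9308 genes tested with an entry. The 383 genes include GTPases of these families, so their shares are not a separate observation. The windows of *Igtp* (chr11:58199497-58199543, + strand), *Irgm2* (chr11:58214888-58214934, +), *Tgtp1* (chr11:48992302-48992348, −), *Tgtp2* (chr11:49064261-49064307, −) and *Irgm1* (chr11:48871423-48871464, −) are shown to compare the called p47 genes with their relatives. Each is written 5′ to 3′ on the gene's strand, and capitals mark the GAS and ISRE letters.
Igtp: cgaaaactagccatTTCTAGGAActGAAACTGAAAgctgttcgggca
Irgm2: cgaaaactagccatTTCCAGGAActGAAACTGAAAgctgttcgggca
Tgtp1: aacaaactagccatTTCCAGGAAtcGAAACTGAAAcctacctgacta
Tgtp2: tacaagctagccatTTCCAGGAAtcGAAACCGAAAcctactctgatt
Irgm1: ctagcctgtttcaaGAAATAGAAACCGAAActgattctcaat
In the first 4 genes the GAS letters are followed after 2 bases by the ISRE letters. The windows of *Igtp* and *Irgm2* are identical in 46 of 47 bases, and those of *Igtp* and *Tgtp1* in 33. The *Irgm1* window holds 2 ISRE matches that overlap each other and no GAS letters. A match of letters is a description of these windows, not a measured binding site.

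*Ly6a* (chr15:74994877-74998031), another interferon-inducible gene, encodes Sca-1, which is also an antigen of the sort gate. It stood at 327, 248, 247 and 257 CPM in CTL 1 to 4 and at 603, 596, 879 and 405 CPM in CKO 1 to 4. CKO 3 was the highest CKO mouse and CKO 4 the lowest, still above CTL 1, the highest control (log2 fold change 1.20, SE 0.19, edgeR adjusted p = 0.0201). As cells of both genotypes had to be Sca-1+ to be collected, the comparison is between cells that passed that gate. Effector genes of type I interferon, which restrict viruses, were a further list. Of 45 tested, 35 had a log2 fold change above 0 (median 0.45), 15 (33.3%) were higher and 0 lower with p below 0.05 before adjustment, and 0 were called by edgeR. Without CKO 3 the median was 0.26, and 11 were higher and 1 lower at that p. *Rtp4*, which encodes an interferon-induced receptor transporter, was at 237, 106, 146 and 119 CPM in CTL and 227, 344, 495 and 189 CPM in CKO mice (edgeR adjusted p = 0.284). *Oasl2* was at 101, 51.9, 88.4 and 96.7 CPM in CTL and 164, 129, 124 and 127 CPM in CKO mice, with CKO 1 apart from the other CKO mice (adjusted p = 0.332). *Oas1a*, a sensor of double-stranded RNA, ranged from 40.5 to 63.5 CPM in CTL and from 68.9 to 96.8 CPM in CKO mice, and *Samd9l* from 82.0 to 133 and from 146 to 246 CPM.

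Receptors and transcription factors of the interferon pathway showed little shift as a list, with 14 of 21 above 0 (median 0.11). At an unadjusted p below 0.05, 2 were higher and 1 lower. With the Y-linked covariate the median was 0.23, with 1 higher and 0 lower. *Irf7*, the interferon-inducible regulator of type I interferon genes, stood at 51.9, 28.9, 41.1 and 65.6 CPM in CTL and 74.6, 113, 163 and 84.0 CPM in CKO mice (log2 fold change 1.21, SE 0.28, edgeR adjusted p = 0.123). In the MHC class I list, 16 of 20 genes were above 0 (median 0.18), with 2 higher at an unadjusted p below 0.05 and 6 when CKO 3 was left out. With the Y-linked covariate 4 were higher. *H2-Q7* was at 357, 369.9, 296 and 312 CPM in CTL and 488, 547, 494 and 524 CPM in CKO mice (log2 fold change 0.62, adjusted p = 0.0839), whereas β2-microglobulin (*B2m*), the shared light chain, had a log2 fold change of 0.16 (SE 0.13). In MHC class II, 4 of 10 genes were higher at an unadjusted p below 0.05, also without CKO 3. The median was 0.12 (0.25 without CKO 3, and 0.25 with the Y-linked covariate). *H2-Eb1*, a class II β chain, was at 23.9, 42.9, 30.04 and 26.1 CPM in CTL and 77.6, 58.9, 117 and 45.8 CPM in CKO mice. The invariant chain *Cd74* was at 221, 269, 152 and 92.0 CPM in CTL and 826, 379, 514 and 215 CPM in CKO mice. Neither was called (edgeR adjusted p = 0.12 and 0.213), and the class II transactivator *Ciita* was close to the floor, from 0.656 to 2.97 CPM in CTL and from 0.741 to 2.63 CPM in CKO mice. B cells carry class II as well, and of 13 B cell markers listed, 5 were in the table, 2 of these with 0 counts in all 8 mice. *Cd79b*, a B cell receptor chain named here after its values were seen, was at 85.6, 83.6, 76.8 and 74.9 CPM in CTL and 86.4, 146, 123 and 108 CPM in CKO mice (edgeR adjusted p = 0.461). Every CKO mouse lay above the controls in *Cd79b*, CKO 1 by little. The other of the 2 B cell markers tested went the other way, with a log2 fold change of −1.64. It was lower at an unadjusted p below 0.05, though not without CKO 3. The part of B cells in the class II values was not tested.

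Among other cytokine pathways, 14 of 15 IL-6 family genes were above 0 (median 0.24), with 4 higher at an unadjusted p below 0.05. The number was 2 without CKO 3, and also 2 with the Y-linked level as a covariate. *Il6ra*, the ligand-binding receptor chain, was at 3.39, 0.528, 0.279 and 2.79 CPM in CTL and 7.04, 8.59, 15.01 and 15.5 CPM in CKO mice (edgeR adjusted p = 0.218). The feedback inhibitor *Socs3* was at 3.81, 0.528, 10.3 and 0.656 CPM in CTL and 7.61, 12.98, 11.5 and 15.2 CPM in CKO mice (adjusted p = 0.675). In the TNF and NF-κB list the median was −0.02 and 14 of 31 genes were above 0 (without CKO 3, 0.09 and 16), with 4 higher and 1 lower with p below 0.05 before adjustment. With the Y-linked covariate this list had a median of 0.15, with 18 above 0. Its members with the smallest p were *Tradd*, the adaptor of the TNF receptor (log2 fold change 0.96, SE 0.21), and *Tnfaip8* (0.55, SE 0.13), and neither passed the adjusted threshold (edgeR adjusted p = 0.101 and 0.12). Toll-like receptor and inflammasome genes had a median of −0.07, and 2 of 23 were higher and 0 lower with p below 0.05 before adjustment. Without CKO 3 their median was 0.03, and 1 was higher and 2 lower. It was −0.01 with the Y-linked covariate, with 1 higher and 0 lower.

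Outside these pathways, the called genes had diverse roles. *Mt1* (chr8:94178883-94180327) encodes a metallothionein, a cysteine-rich protein that binds zinc and other metals. It was measured at 17.8, 14.1, 15.2 and 22.6 CPM in CTL 1 to 4 and at 41.1, 75.4, 76.4 and 62.7 CPM in CKO 1 to 4. CKO 1 was the lowest CKO mouse, the other CKO mice lay close together, and the mean was 3.67-fold higher in CKO HSCs (log2 fold change 1.87, SE 0.26, edgeR adjusted p = 0.0117). Its neighbour and close homolog *Mt2* was low, with 0, 1.76, 0 and 0.984 CPM in CTL and 3.81, 8.77, 1.30 and 3.06 CPM in CKO mice, and was not called (edgeR adjusted p = 0.57). The list of 18 metallothionein and zinc-handling genes had a median of 0.08 (0.16 without CKO 3, and 0.14 with the Y-linked covariate). *Mt1* and *Mt2* were its only members at an unadjusted p below 0.05, and with that covariate 1 member was higher at this p. *Renbp* (chrX:73922121-73930850), an X-linked gene that encodes a renin-binding N-acetylglucosamine epimerase, stood at 34.5, 31.5, 30.04 and 36.6 CPM in CTL and 64.5, 65.8, 78.2 and 64.5 CPM in CKO mice. The log2 fold change was 1.04 (SE 0.19, edgeR adjusted p = 0.0406). CTL 4, without Y-linked counts, had 36.6 CPM, and CKO 1, with Y-linked counts, had 64.5 CPM. Each is a single mouse, so for this X-linked gene sex and genotype cannot be told apart. *Gm16548* (chr1:164148576-164152217), a long noncoding RNA, was at 2.54, 1.23, 3.21 and 4.26 CPM in CTL and 16.9, 17.9, 14.3 and 19.4 CPM in CKO mice, and its libraries did not overlap (log2 fold change 2.59, SE 0.45, edgeR adjusted p = 0.0304).

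*Sva* (chr6:42038394-42042851), which encodes a secreted seminal vesicle protein, had 0 counts in every CTL mouse and 35, 32, 30 and 35 counts in CKO 1 to 4. With 3 counts over the CTL group taken as the floor, it was at least 45.2-fold higher in CKO HSCs (edgeR adjusted p = 0.0145). It was the one gene tested with 0 counts in all CTL mice, and it was absent from library B of CKO 3, so that all counts of that mouse came from 100 cells.

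Of the genes that fell, *Fbp1* (chr13:62864753-62888298) encodes fructose-1,6-bisphosphatase, an enzyme of gluconeogenesis that opposes glycolysis. It was at 60.6, 89.7, 50.0 and 45.4 CPM in CTL 1 to 4 and at 13.7, 22.1, 20.8 and 13.6 CPM in CKO 1 to 4. The CKO libraries all lay below the CTL libraries, and the mean was 3.50-fold lower (log2 fold change −1.81, SE 0.27, edgeR adjusted p = 0.0145). The list of 27 genes of gluconeogenesis and glycolysis had a median of −0.03 (0.04 without CKO 3), and *Fbp1* was its one member lower at an unadjusted p below 0.05. *Wfdc2* (chr2:164562715-164568510), which encodes a secreted protein with whey acidic protein domains, was at 20.8, 14.4, 36.5 and 25.1 CPM in CTL and 6.85, 6.84, 3.71 and 3.35 CPM in CKO mice. The CTL mice spread over more than a factor of 2, and none came near the CKO range (log2 fold change −2.22, SE 0.41, edgeR adjusted p = 0.0406). *Lrrc56* (chr7:141194111-141210055), a gene of ciliary dynein transport, was at 3.81, 2.64, 2.65 and 3.77 CPM in CTL mice and had 0 counts in all CKO mice against 75 in the CTL mice, which makes it at least 24.4-fold lower (edgeR adjusted p = 0.0421).

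The 10 genes with the smallest p just above the threshold were *Clu*, *H2-Q7*, *Gstm2*, *Itga6*, *Iigp1*, *Ache*, *Vwf*, *Itgb3*, *F2rl2* and *Tgtp2* among the higher ones (edgeR adjusted p 0.0700 to 0.101). On the lower side they were *Lrrn3*, *Abca8b*, *Cenpv*, *Rcn3*, *Hmgb3*, *1700097N02Rik*, *Oip5*, *Gas5*, *Abhd1* and *Fam216a* (0.0574 to 0.256). *Lrrn3*, a membrane protein with leucine-rich repeats, had 79 counts in CTL and 1 in CKO mice. *Itga6*, an integrin α subunit for laminin that HSCs express, was at 26.9, 31.0, 23.2 and 27.5 CPM in CTL and 59.7, 43.7, 59.9 and 57.2 CPM in CKO mice, and only CKO 2 lay below 50 CPM among the CKO mice. *Hmgb3*, a chromatin protein of early progenitors, was at 239.8, 249, 249.7 and 309 CPM in CTL and 154, 187, 150.1 and 188 CPM in CKO mice. The noncoding RNA *Gas5*, host of many small nucleolar RNAs, had a log2 fold change of −0.47 (SE 0.12).

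Among genes of stem cell identity, *Ly6a* was the one called. Of 43 tested, 26 had a log2 fold change above 0 (median 0.04), with 5 higher and 1 lower with p below 0.05 before adjustment. Without CKO 3, 5 were higher and 3 lower at that p. With the Y-linked level as a covariate, 33 were above 0 (median 0.14), with 9 higher and 1 lower. *Fli1* and *Itgb3* stand both in this list and in that of platelet genes. *Procr* (EPCR) was at 64.8, 103, 61.9 and 32.8 CPM in CTL and 104, 53.1, 55.4 and 44.0 CPM in CKO mice, and the ranges overlapped. The transcription factor *Hlf* was at 185 ± 26.1 and 182 ± 18.0 CPM, and the receptor *Kit* at 350.5 ± 52.9 and 348 ± 38.4 CPM. *Slamf1*, which encodes the sort antigen CD150, had a log2 fold change of 0.53 (SE 0.21, edgeR adjusted p = 0.605). *Mecom*, a regulator of HSC quiescence, had one of −0.47 (SE 0.23). *Vldlr*, the very low density lipoprotein receptor, was at 15.3, 15.1, 19.6 and 6.07 CPM in CTL and 44.5, 30.7, 33.4 and 47.0 CPM in CKO mice (adjusted p = 0.12), without overlap.

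Genes of multipotent progenitors and lymphoid priming had a median of 0.29, and 4 of 14 were higher at an unadjusted p below 0.05. Without CKO 3 the median was 0.13, with 5 higher. One of them was *Cd48*, whose product was gated out in the sort. It was at 65.5, 61.2, 51.8 and 83.0 CPM in CTL and 102, 100.0, 95.3 and 95.1 CPM in CKO mice (log2 fold change 0.58, edgeR adjusted p = 0.372). *Flt3*, a receptor of lymphoid-primed progenitors, did not go the same way, with 30.8 ± 3.098 CPM in CTL and 24.4 ± 10.1 in CKO HSCs. Markers of erythroid cells (summed 2648 to 3328 CPM in CTL, 2390 to 3599 in CKO), granulocytes and monocytes (726 to 816, 719 to 887), macrophages (51.1 to 118, 55.6 to 115) and endothelial or stromal cells (107 to 163, 104 to 174) overlapped between the genotypes in their sums. So did those of B cells (77.2 to 96.8, 87.3 to 148), T and NK cells (409 to 521, 360.2 to 474), plasmacytoid dendritic cells (153 to 186, 152 to 199) and basophils or mast cells (185 to 259, 137 to 247). Of 39 markers tested in these 8 lists, 3 were higher and 5 lower with p below 0.05 before adjustment, and 3 and 7 without CKO 3.

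No S-phase or mitotic gene was called, but nearly all had a log2 fold change below 0. Of 38 tested, 36 were below 0 (median −0.25), and 6 (15.8%, against 2.80% of all genes) were lower and 0 higher at an unadjusted p below 0.05. This rested in part on CKO 3: without it 10 of 38 were above 0 and the median was −0.12, with 6 lower and 0 higher at that p. *Pcna*, the DNA polymerase clamp, was at 375, 367, 443 and 364 CPM in CTL and 269, 301, 247 and 315 CPM in CKO mice (edgeR adjusted p = 0.339). *Top2a*, a topoisomerase of dividing cells, was at 232, 419, 209.9 and 257 CPM in CTL and 189.9, 215, 176 and 164 CPM in CKO mice. The genotypes did not overlap in *Pcna* and overlapped in *Top2a*. The proliferation marker *Mki67* had a log2 fold change of −0.15 (SE 0.25). *Nusap1* (−0.62, SE 0.23) and *Hmgb2* (−0.42, SE 0.16) were on the same side. Among CDK inhibitors and cyclins 8 of 24 were above 0 (median −0.11), with 2 higher and 3 lower at that unadjusted p, or 1 and 0 without CKO 3. With the Y-linked covariate 1 was higher and 1 lower. *Ccnd1*, the cyclin of G1 entry, had a log2 fold change of 1.31 (SE 0.36, adjusted p = 0.284). The list of unfolded protein and heat shock genes (27 tested), that of TGF-β genes (23) and that of the BCL2 family (11) had 0 members at an unadjusted p below 0.05 in either direction in edgeR's test. Without CKO 3 these counts were 1 higher and 1 lower, 2 and 2, and 1 and 0. They were 1 and 1, 1 and 0, and 1 and 0 with the Y-linked covariate.

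**Figure D4:**
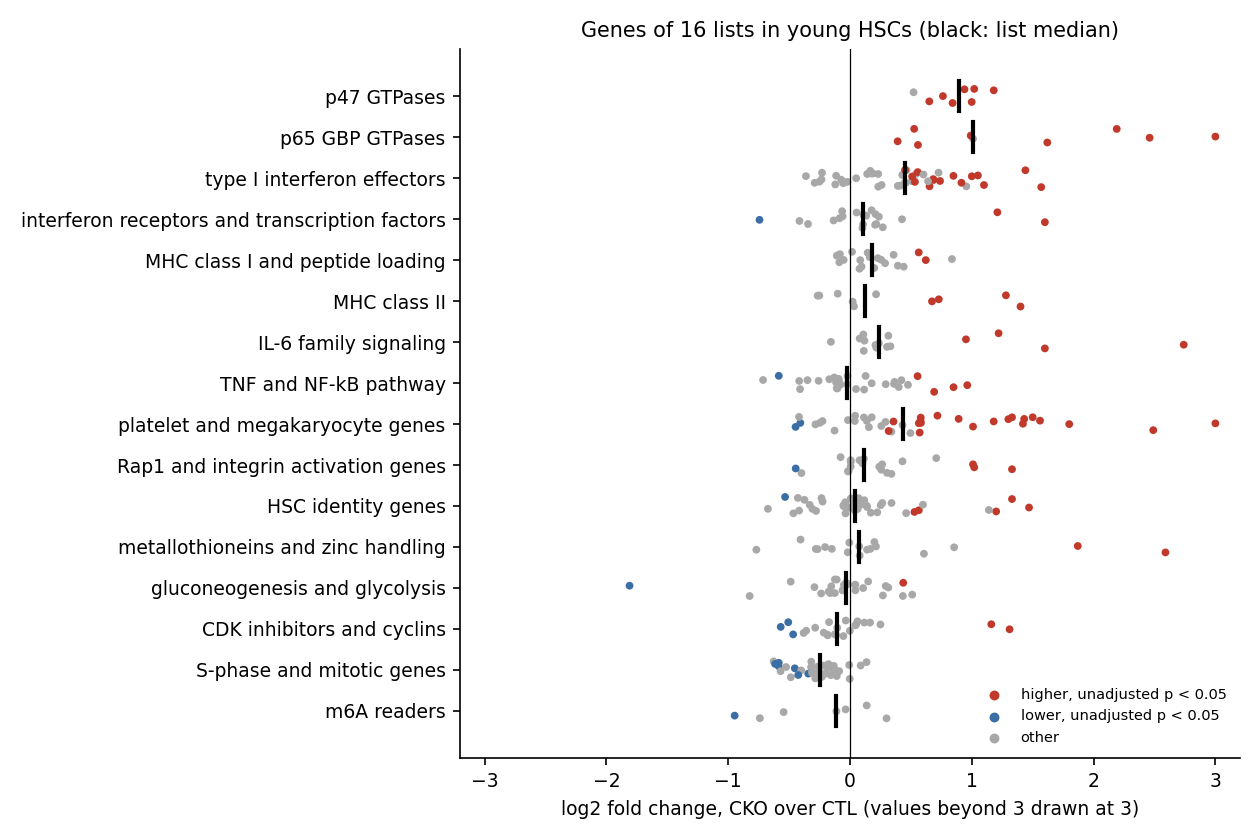
Log2 fold change (CKO over CTL, x axis) of each tested member of selected gene lists (rows), one point per gene (red and blue at an unadjusted p below 0.05, values beyond 3 drawn at 3), with the list's median as a black bar. Medians lie at 1.01 for GBPs, 0.89 for p47 GTPases, 0.45 for type I interferon effectors, 0.43 for platelet genes and −0.25 for S-phase and mitotic genes.

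Whether the genotype effect was the same in aged HSCs was tested as an interaction in one fit over all 17 mice, of which 5 CKO and 4 CTL mice were 1 yr old. In edgeR's test 0 of 12352 genes had an interaction at an adjusted p below 0.05, and 588 had one at an unadjusted p below 0.05. In aged mice CKO 121 and CTL 124, *Ythdf2* was at 188 and 70.5 CPM, against their labels. Without this pair 15 genes passed, among them *Igtp*, *Gbp4*, *H2-Eb1*, *Cd74* and *H2-Ab1*, each with a log2 fold change above 0 in young and below 0 in aged mice in that fit. Of the 18 called genes described above, 15 had the same sign in aged mice. As these genes were chosen by their difference in young mice, smaller values in a second group and low interaction p-values are favored by that choice, and none of the 18 passed the adjusted threshold over 17 mice.

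The same genes are given for aged mice to set both ages side by side, and differences between ages were not tested for lists. In aged mice, 33 of 39 platelet and megakaryocyte genes were above 0 (median 0.66), and 35 (median 0.68) without CKO 121 and CTL 124. *Plek* had an aged log2 fold change of 1.32 (SE 0.29), *Rap1b* of 1.17 (SE 0.25), *Cavin2* of 1.16 (SE 0.52) and *Pf4* of 2.05 (SE 0.39). The fifth called platelet gene, *Tubb1*, had one of 0.92 (SE 1.25), or 0.62 without CKO 121 and CTL 124, against 6.03 in young mice in the same fit (unadjusted interaction p = 0.0245). *Mt1* had 3.05 (SE 0.42) with an edgeR adjusted p of 0.00371. Above 0 in aged mice were 5 of 8 p47 GTPases and 0 of 9 GBPs, with list medians of 0.06 and −0.48. Without CKO 121 and CTL 124 these were 2 of 8 and 0 of 9, with medians of −0.51 and −1.25. *Igtp* had an aged log2 fold change of 0.074 (SE 0.27), *Gbp4* of −0.48 (SE 0.76) and *Gbp6* of −0.33 (SE 0.52). Without that pair of mice they were at −0.39, −1.63 and −0.81, so that *Igtp* changed sign. The difference from the young effect, tested over 17 mice, had an unadjusted p of 0.0279 for *Igtp*, 0.0269 for *Gbp4* and 0.00146 for *Gbp6*, and none passed the adjustment. Over 15 mice the adjusted p from edgeR was 0.0405 for *Igtp*, 0.0201 for *Gbp4* and 0.0608 for *Gbp6*. Of the genes that fell, *Wfdc2* (−2.06, SE 0.46) and *Fbp1* (−1.23, SE 0.61) were below 0 in aged mice as well, whereas *Lrrc56* (2.20, SE 1.21) was not. Without the pair, *Wfdc2* was at −2.12, *Fbp1* at −3.05, *Lrrc56* at 2.23 and *Ythdf2* at −1.06, against −0.48 for *Ythdf2* with it. As the pair was singled out by its *Ythdf2* levels, the larger *Ythdf2* difference without it follows from that choice. S-phase and mitotic genes were above 0 in 25 of 38 cases in aged mice (median 0.12), and in 34 (median 0.30) without the pair.

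**Figure D5:**
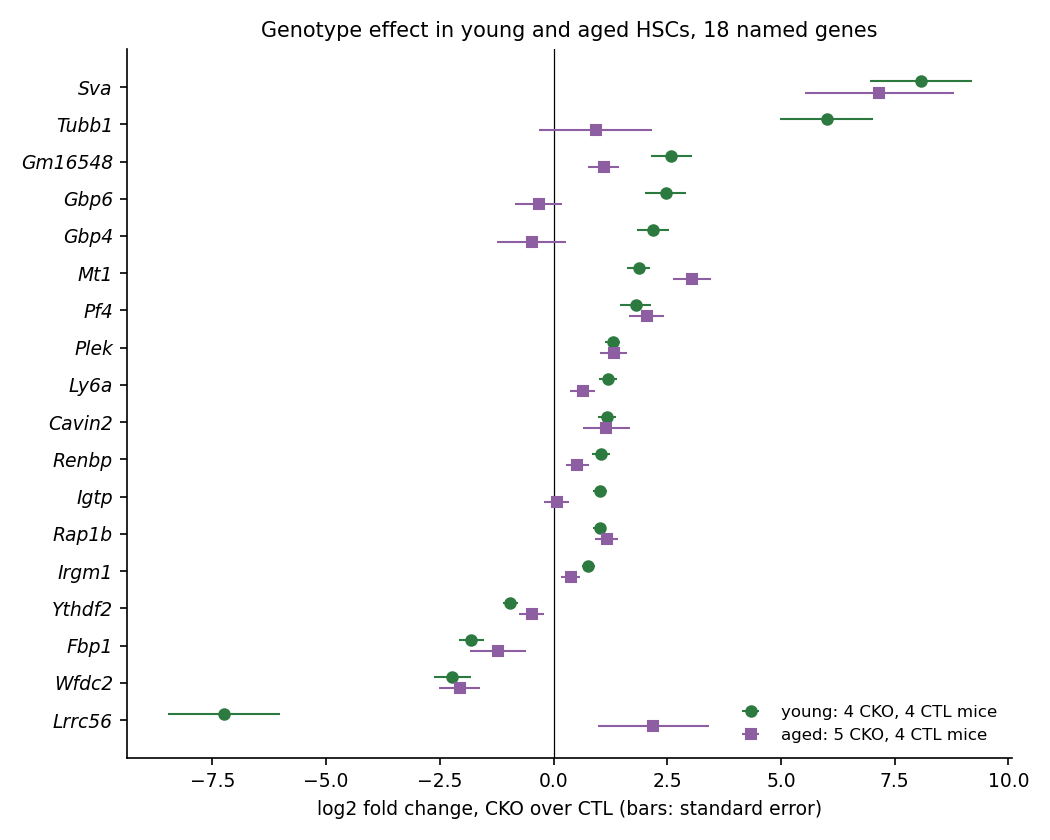
Log2 fold change of CKO over CTL with its standard error (x axis) for 18 called genes (rows), in young mice (circles, 4 against 4) and in aged mice (squares, 5 CKO against 4 CTL, from the fit over 17 mice). *Plek*, *Rap1b* and *Pf4* lie at similar values at both ages, and *Igtp*, *Gbp4* and *Gbp6* lie near or below 0 in aged mice.

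Because YTHDF2 binds m6A, the number of GGACT sequences, the most frequent core of the m6A consensus, was counted in the longest GENCODE protein-coding transcript of each gene. The median was 1.04 GGACT per kb over 11107 genes with a transcript, 1.13 among 481 genes higher and 0.874 among 309 genes lower at an unadjusted p below 0.05. It was 1.16 in the 14 genes called higher and 1.21 in the 5 called lower. In transcripts under 1500 bases, the share with a log2 fold change above 0 was 37.6% of 951 genes with at most 1 GGACT, 50.3% of 535 with 2 or 3, and 64.1% of 117 with 4 or more. Median GC content in these classes was 52.9, 53.8 and 55.3%, and its part in the gradient was not tested. The corresponding shares were 46.9, 50.7 and 55.2% in transcripts of 1500 to 2500 bases, 49.3, 51.6 and 55.6% in those of 2500 to 4000, and 54.8, 48.0 and 50.1% in longer ones. The share thus rose with the GGACT count in the first 3 length classes and not in the longest. These are sequence counts across genes, and methylation itself was not measured in these libraries.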

How the data were processed

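The authors sequenced SMART-Seq2 libraries of 100 sorted HSCs, aligned the reads to GRCm38 (mm10) with HISAT2 and counted reads per gene with Rsubread. The deposited values are raw counts per gene (13108 genes), without normalization. The strand setting and the treatment of reads shared by paralogs are not given in the sources used here. Counts of libraries A and B were summed per mouse (4715947 to 7171657 per mouse), filtered with filterByExpr (minimum count 10, minimum total 15) and scaled by TMM. CKO and CTL were compared by the quasi-likelihood test of edgeR 4.0.16 (R 4.3.3), with Benjamini-Hochberg adjustment over all genes tested and a threshold of 0.05. P-values cover the spread between these mice. CPM values are relative to the TMM-scaled library size. Levels are compared between genotypes, not between genes. Alternatives were likelihood ratio tests as used by the authors, libraries as replicates, DESeq2 1.42.0 and its size factors, limma 3.58.1 (voom), other filters, a replicate block, a Y-linked covariate, each library alone, all 17 mice and each mouse left out. Library B of aged CTL 99, which the submitters exclude for low counts, was left out of the fit over 17 mice.

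Named genes were the deleted gene, all called genes (at most 15 per direction), the members of each list with the smallest p (up to 4), defining members of lists, and the 10 genes per direction just past the threshold. The comparison, its members and the gene lists were chosen with earlier results of these data known. A few genes that meet the rule are counted throughout but not reported here. Gene names were matched to RefSeq (13080 matched to 1 gene). Promoters came from RefSeq (GRCm38.p6), and 6 called genes had no promoter entry.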

Additional observations from a re-analysis of the deposited data

Results flagged for a closer look

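In 14 of 166 groups of 4 mice, over 83 genes checked, 1 mouse stood far from the other 3, with a gap to its nearest neighbour above the 95% critical value of Dixon's ratio (the gap over the group's range). Chance alone does this in about 1 group in 20. Among called genes, *Ly6a* was high in CTL 1 (gap ratio 0.876; 327 CPM against 247 to 257), *Irgm1* in CKO 1 (0.848; 398 against 335 to 345) and *Renbp* in CKO 3 (0.904; 78.2 against 64.5 to 65.8). *Tubb1* had its one CTL count in CTL 1 (ratio 1.0). In CKO mice, *Itga6* was low in CKO 2 (0.833; 43.7 CPM against 57.2 to 59.9), *Ache* high in CKO 4 (0.952; 29.2 against 17.7 to 18.2), *F2rl2* in CKO 3 (0.847; 193 against 74.1 to 92.3) and *Oasl2* in CKO 1 (0.877; 164 against 124 to 129). *Lrrn3* had its one CKO count in CKO 1 (ratio 1.0). In CTL mice, *Hmgb3* was high in CTL 4 (0.856; 309 CPM against 240 to 250), *Fam216a* in CTL 1 (0.946; 149 against 143 to 144) and *Pcna* in CTL 3 (0.855; 443 against 364 to 375), while *Samd9l* was low in CTL 2 (0.841; 82.0 against 125 to 133) and *Ythdf1* in CTL 4 (0.879; 53.1 against 72.1 to 74.8). No single mouse accounted for most of these cases.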

How the results depend on the processing

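None of the 18 called genes named changed direction in the alternatives that tested it (15 or 16 genes were tested by library A, library B, a minimum count of 50 and the fits over libraries), and the number of calls varied with the test and the mice. Against 15 higher and 5 lower genes, 33 and 14 were called with libraries as replicates (quasi-likelihood), 54 and 13 by likelihood ratio tests over mice, 66 and 24 by likelihood ratio tests over libraries, and 58 and 19 by DESeq2. Limma voom over libraries called 18 and 7, DESeq2 size factors in edgeR 14 and 5, and no filter or a minimum count of 50 gave 13 and 4. With the Y-linked level as a covariate 8 and 1 were called, 7 and 1 of them the same genes. Library A alone called 0 genes in edgeR (at an unadjusted p below 0.05, 395 higher and 321 lower) and library B alone 0 (353 and 204), while the fit over all 17 mice called 1 and 0. Leaving out each mouse in turn gave 0 to 14 higher and 0 to 4 lower genes. CKO 3 represented by its library A alone, chosen after seeing the data, gave 13 and 2. With a replicate block on the mouse number 12 and 2 were called. The numbers name different animals, and the labels give no pairing. The study states that control mice were littermates, without naming the litters. Residuals of same-numbered CKO and CTL mice correlated at −0.0194 to 0.0501, which cannot exclude a shared litter. Age interactions went from 0 to 15 genes without aged CKO 121 and CTL 124. The cause of these differences was not tested. Fold changes against groups at 0 counts, as for *Sva* and *Lrrc56*, are lower limits set by 3 counts over the group.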
